A study of Homo sapiens with 16 samples.

Results

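The genes described here are 36 genes of the actin cytoskeleton and the contractile machinery, taken by name from a hand-written list and found as rows of the deposited gene table, which has 28374 rows. They were read in CCD-1070Sk cells, an established line of human skin fibroblasts, under 6 treatments. All 36 passed the filter on low counts that left 18575 genes to test. They comprise 4 actins (ACTA2, ACTB, ACTG1, ACTG2), 7 genes of the calponin and caldesmon group (TAGLN, TAGLN2, CNN1, CNN2, CNN3, CALD1, LMOD1) and 4 tropomyosins (TPM1, TPM2, TPM3, TPM4). LMOD1 is a leiomodin, not a calponin or caldesmon, and was placed in that group by the list. A further 4 encode non-muscle or smooth muscle myosin II chains (MYL6, MYL9, MYH9, MYH10), 4 encode filament cross-linkers (FLNA, FLNC, ACTN1, ACTN4) and 4 encode proteins of the adhesion plaque (VCL, TLN1, ZYX, TES). The last groups are 5 LIM-domain proteins (FHL1, FHL2, PDLIM5, PDLIM7, TGFB1I1) and 4 proteins of filament turnover (WDR1, CFL1, PFN1, CAP1).

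Fibroblasts build stress fibres from actin filaments, tropomyosins, myosin II and alpha-actinin, and anchor them at focal adhesions through talin, vinculin and zyxin. Transcription of many of these genes is coupled to the state of actin itself. Monomeric actin binds the coactivators MRTF-A and MRTF-B and keeps them out of the nucleus, and when filaments form they are released, enter the nucleus and act with serum response factor (SRF) at a DNA element known as the CArG box. SRF also works with ternary complex factors downstream of ERK kinases, and this second branch drives immediate-early genes such as FOS and EGR1 after mitogens.

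The control cells received no agent and are recorded at 0 h. EGF and TPA samples are recorded at 1 h, so the agent and the recorded time cannot be told apart in comparisons with control. EGF, the ligand of the epidermal growth factor receptor, was given at 30 ng/ml for 1 h, and TPA, a phorbol ester that activates protein kinase C, at 100 nM for 1 h. H89 is a kinase inhibitor best known for blocking protein kinase A, and at micromolar doses it also acts on other kinases, among them MSK1. It was used at 10 µM as a pretreatment of 30 min, alone or before EGF (EGF+H89) or before TPA (TPA+H89). Cells given H89 alone are recorded at 0 h, so the time spent in H89 may differ between H89 alone and the combined treatments. RNA was sequenced from 4 control samples, 3 each with EGF or H89 alone, and 2 each with TPA, TPA+H89 or EGF+H89. All samples are of 1 cell line. The labels do not say whether the samples of a group are separate cultures; the p-values given here therefore speak only of spread among samples that may be technical repeats.

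The table held counts of reads per gene, with totals between 7527026 (TPA+H89 1) and 130075914 (TPA 2) per library. The columns of controls 3 and 4 were equal in 100% of the 19340 genes with a count and were used once, as control 3, which left 15 libraries. No label names a batch, and the counts themselves fell into 3 library types. Control 1 and EGF 1 (type A) had more genes with a count of 1 than of 2, whereas 6 libraries (type B: control 2, EGF 2, TPA 1, H89 1, EGF+H89 1, TPA+H89 1) held 11.7% to 30.4% of their counts in the ribosomal RNA rows RNR1 and RNR2 and the 7 others (type C) held none. TPA 2, H89 3 and TPA+H89 2 carry sample names from the same stretch of numbering as the copied control, so that stretch has no control that differs from control 3. These stretches were set by hand from the numbers in the sample names, and no label marks their limits. All 9 fibroblast markers (such as COL1A1 and PDGFRB) exceeded 1 CPM. Of the 8 smooth muscle and pericyte markers, MYH11, DES and PLN reached at most 1.16, 3.35 and 1.78 CPM and KCNMB1 was at 0 in 14 of the 16 columns, RGS5 and MYOCD reached 5.80 and 14.6, and CSPG4 (58.5 to 359 CPM) and SYNPO2 (54.2 to 212) were present throughout; these marker levels are by total count. Together the 36 genes took 1.21% to 2.97% of each library's counts. In RNA from bulk cultures, a smaller number of cells of one kind and less RNA per cell cannot be told apart.

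The CArG box, 2 C, 6 A or T and 2 G, was searched in the RefSeq promoter windows (GRCh38.p14), which run from 250 bases before to 50 bases after each annotated start. The motif class is its own reverse complement, so 1 search covers both strands. Windows existed for 33 of the 36 genes, 67 windows in all (ACTB, MYL9 and TAGLN did not match), and 10 of these 33 genes held a box, or 30.3%. Of all 27305 genes with a window, 1.6% held one. By window the shares were 17.9% of the 67 windows of members and 1.29% of all 35116 windows. The 12 boxes are shown because SRF is known to act on this gene class through elements of this form. The box is in capitals, each sequence reads 5′ to 3′ on the gene's own strand, and 10 bases of flank are given on either side (8 on the left for TES, where the window begins).
ACTG1: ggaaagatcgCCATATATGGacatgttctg
ACTG2 distal: gaaaaaaccaCCTTATATGGtaatattgct
ACTG2 proximal: cgtcagctggCCTTTTTAGGgactttgttt
ACTN1: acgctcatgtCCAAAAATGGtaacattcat
CNN2: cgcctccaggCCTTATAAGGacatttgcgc
FHL1: ccttggatcaCCTAAAATGGttaagaattt
FHL2 first start: aatctggagaCCTTAAAAGGcacgtgggag
FHL2 second start: gcgtgcatctCCTTATATGGtcaaatgaca
FLNA: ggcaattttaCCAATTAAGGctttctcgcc
TES: acacaagaCCAAATTAGGaatggttgcc
TGFB1I1: tggaggggagCCAAATTTGGcttgggtgaa
TPM4: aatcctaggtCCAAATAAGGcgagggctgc

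On the forward strand these stretches lie at chr2:73892888-73892917 and chr2:73892925-73892954 for ACTG2, chr19:1026509-1026538 for CNN2, chrX:136196911-136196940 for FHL1, chr7:116222703-116222730 for TES, chr16:31473144-31473173 for TGFB1I1 and chr19:16067355-16067384 for TPM4. On the reverse strand they lie at chr17:81512874-81512903 for ACTG1, chr14:68977718-68977747 for ACTN1, chr2:105438595-105438624 and chr2:105399091-105399120 for the 2 FHL2 starts, and chrX:154374709-154374738 for FLNA. All 12 boxes were upstream of their start, with centres from 46 bases (TGFB1I1) to 237 bases (TES) away. ACTG2, the enteric smooth muscle actin, held 2 boxes in 1 window, while FHL2 held 1 at each of 2 alternative starts. A match is a description of letters and does not show that SRF binds there. A missing match does not show that a gene lacks such an element, because looser forms and other regions were not searched.

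**Figure D1:**
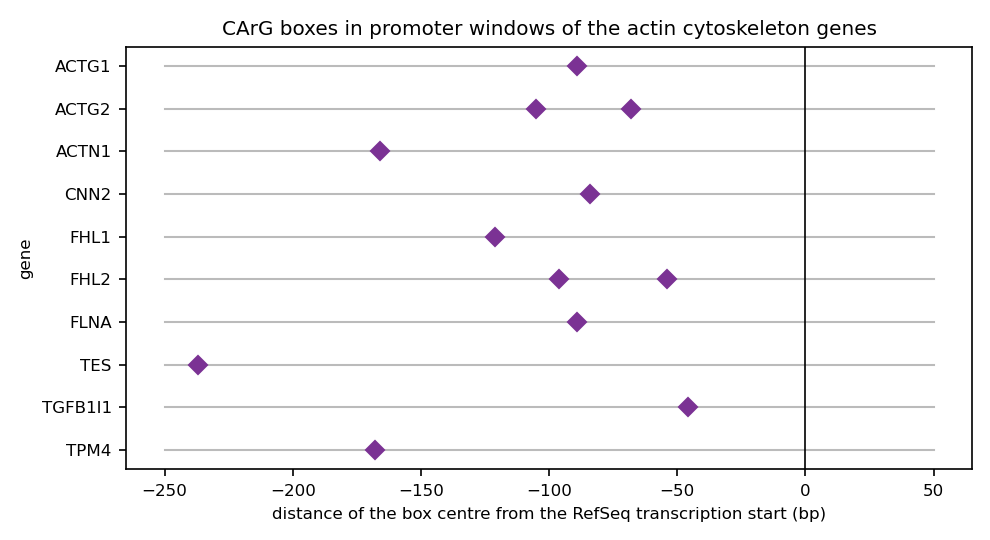
Distance in bases of each CArG box centre (diamond) from the annotated transcription start (vertical line) in the promoter windows (grey lines) of the 10 genes that hold one. Every diamond lies left of the start, between -237 (TES) and -46 (TGFB1I1).

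Levels per length, in CPM per kilobase of exon, differed widely between the genes in the controls. ACTB, the main cytoplasmic beta-actin, stood highest with a control median of 814 (range 559.9 to 923). TPM2 followed at 538 (505 to 872) and ACTG1, cytoplasmic gamma-actin, at 474 (344 to 1893), and the ranges of these 3 overlapped. MYL6, the essential light chain of myosin II, had a median of 288 CPM per kilobase, FLNA 226, TAGLN 207 and CALD1 189. ACTA2, the smooth muscle alpha-actin used as a mark of myofibroblasts, stood at 54.2 (53.9 to 137). The lowest were PDLIM5 at 7.32 (5.48 to 9.25) and ACTG2 at 0.561 (0.270 to 2.42) CPM per kilobase.

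Over the 15 libraries the level of a single gene ranged from 1.72-fold (CNN3) to 11.6-fold (ACTG2) between its lowest and highest library. The highest values fell in 6 of the 15 libraries and the lowest in 7. TPA 2 was highest for 12 of the 36 genes (ACTB, CNN1, TPM1, TPM2, MYL9, MYH9, FLNA, FLNC, ZYX, PDLIM7, TGFB1I1 and PFN1), H89 3 for 7 (CNN2, TPM3, TPM4, ACTN4, VCL, FHL1 and CAP1) and EGF 1 for 8 (ACTA2, ACTG1, ACTG2, TAGLN, MYH10, TES, FHL2 and WDR1). The lowest values were most often in EGF 1 and control 3, with 9 genes each. No share of all genes stands beside these counts of highest and lowest values, and they are not read as particular to the members. TPA 2, for instance, lay above each control in 31% of all genes. For the members whose single libraries are not given below, the range of levels was 104 to 264 CPM for TAGLN2, 205 to 651 for CNN2, 157 to 269.9 for CNN3 and 44.4 to 122 for LMOD1. It was 309.6 to 1515 CPM for MYL6, 103 to 306 for MYH10, 314 to 1385 for FLNC, 217 to 447 for ACTN1 and 142 to 299.7 for ACTN4. It was 71.99 to 499.8 CPM for ZYX, 43.2 to 159 for TES, 81.99 to 207 for FHL2, 31.6 to 162 for PDLIM5 and 30.3 to 182 for TGFB1I1. CFL1 ranged from 246 to 629.9 CPM, PFN1 from 103 to 628 and CAP1 from 249 to 492.

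**Figure D2:**
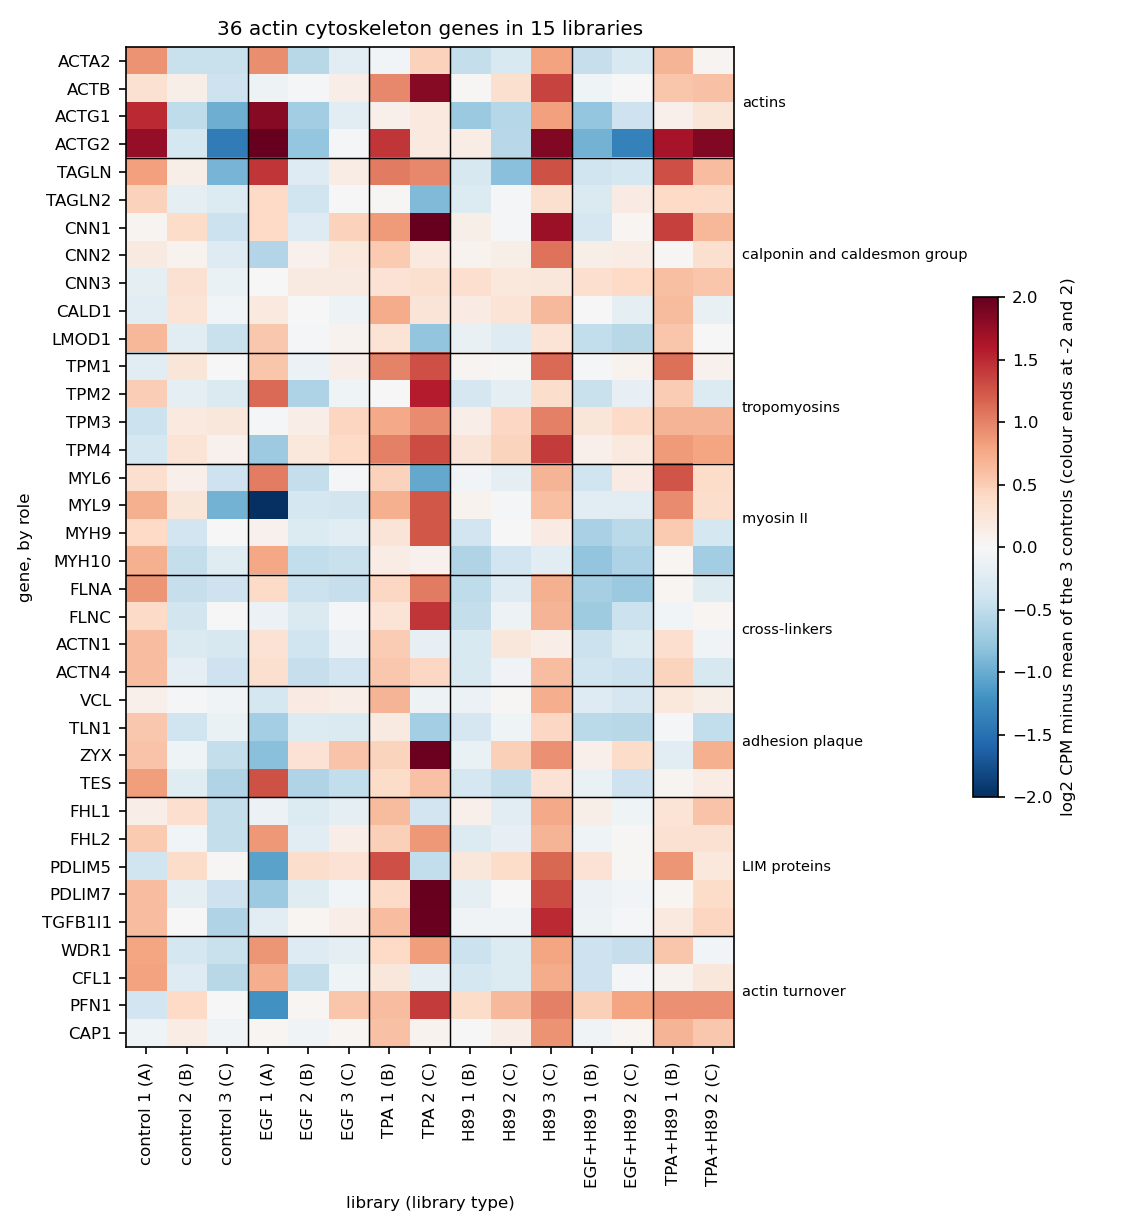
Log2 CPM of each of the 36 genes (rows, by role) in each of the 15 libraries (columns, with the library type in brackets) minus the mean of the 3 controls. Red marks levels above the control mean and blue below. The highest level of 12 genes falls in TPA 2, of 8 in EGF 1 and of 7 in H89 3. No share of all genes stands beside these counts.

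The first comparison asked which of these genes responded to 1 h of TPA. No member passed an adjusted p of 0.05 in edgeR's quasi-likelihood test, where 0.415% of all genes did (77 of 18575), and none did with library type as a term (1.25% of all genes). Their fitted log2 fold changes were mostly positive, with 30 of 36 above 0 and a median of 0.51, against 48.7% above 0 and a median of -0.02 over all genes tested. With library type in the fit the members' median was 0.76. At an unadjusted p under 0.05, 10 members were higher (7.77% of all genes) and 0 lower (5.44% of all genes). DESeq2 called 1 member, ACTB (adjusted p = 0.0222), and 2.93% of the genes it tested. Without TPA 1, edgeR called 2 members, CNN1 at 2.16 ± 0.57 (adjusted p = 0.0463) and PDLIM7 at 2.15 ± 0.54 (adjusted p = 0.0390), with the lone TPA library assumed to vary like the other groups; that fit called 5.92% of all genes and had a median over all genes of -0.24. In 10 members both TPA libraries lay above all 3 controls, an order found in 9.6% of all genes, and in 0 members below, found in 10.1%.

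Among the actins, ACTB had the lowest p. Its level was 1837, 1621 and 1115 CPM in controls 1 to 3 and 2917 and 5259 in TPA 1 and 2. Both TPA libraries exceeded every control, and the fitted log2 fold change was 1.42 ± 0.40 (SE), with an adjusted p of 0.204 in edgeR. ACTG1 behaved unlike ACTB: it stood at 4513, 1131 and 821 CPM in the controls and at 1726 and 1838 under TPA, so control 1 lay far above both TPA libraries and the other controls far below. Its fitted value was -0.27 ± 0.81, and 0.86 ± 0.40 with library type as a term (adjusted p = 0.271, edgeR).

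ACTA2 was at 185, 73.1 and 72.7 CPM in the controls and 95.9 and 137 CPM under TPA, overlapping groups with a fitted log2 change of 0.08 ± 0.54. ACTG2 stayed at the low end throughout, at 6.45, 1.5 and 0.722 CPM in the controls and 5.14 and 2.18 under TPA, which is 25 to 297 reads in the controls. Its SE of 0.97 was the widest of the members in this comparison.

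In the calponin and caldesmon group, whose proteins bind actin, 5 of 7 values were positive (median 0.35). CNN1, calponin 1, stood at 22.2, 27.7 and 15.9 CPM in the controls and 38.6 and 100.3 under TPA, a fitted change of 1.67 ± 0.52 (adjusted p = 0.242, edgeR). TAGLN, transgelin or SM22-alpha, went from 813, 498 and 240.2 CPM in the controls to 945 and 899 under TPA. Both TPA libraries exceeded each control for CNN1 and for TAGLN, and the latter's fitted value was 0.83 ± 0.65. CALD1, caldesmon and the group's most abundant transcript by mean CPM, was at 944, 1334 and 1058 in the controls and 1845 and 1313 under TPA, with overlap. TAGLN2 and the leiomodin LMOD1 had negative values, -0.39 ± 0.36 and -0.25 ± 0.39.

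The tropomyosins, the coiled-coil proteins that lie along the filament, were the group with the highest median, 1.04, and all 4 values were positive. TPM4 read 397, 612 and 542 CPM in the controls and 1023 and 1262 under TPA (log2 change 1.14 ± 0.39, adjusted p = 0.278 in edgeR). TPM1 read 336, 465 and 389 CPM in the controls and 781 and 964 under TPA (1.14 ± 0.39), and TPM3 129.9, 199 and 205 against 294 and 335 (0.82 ± 0.30). For these 3 genes the TPA and control groups did not overlap. TPM2 was 1431, 883 and 828 CPM in the controls and 1012 and 3029.7 in the TPA libraries, so its value of 0.95 ± 0.54 rested on TPA 2.

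For myosin II, MYL9, the regulatory light chain of smooth muscle type, stood at 385, 277 and 122 CPM in the controls and 385 and 553 under TPA, and MYH9, the heavy chain of non-muscle myosin IIA, at 1174, 683 and 885 against 1069 and 2102. Their fitted values were 0.85 ± 0.52 and 0.79 ± 0.37. MYL6 (-0.13 ± 0.53) and MYH10 (0.02 ± 0.43) were near 0. The cross-linkers had 4 of 4 positive values with a median of 0.51. FLNA, filamin A, read 4764, 1871 and 1926 CPM in the controls and 3446 and 5309 under TPA, and control 1 again overlapped the treated libraries. Its log2 change was 0.62 ± 0.49, against 0.94 ± 0.39 for FLNC, and ACTN1 and ACTN4, the alpha-actinins, were at 0.14 ± 0.35 and 0.40 ± 0.39.

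At the adhesion plaque, TLN1, talin 1, was at 992, 519 and 627 CPM in the controls and 779 and 429.7 under TPA, and VCL, vinculin, at 511, 462 and 455 against 762 and 445. In both genes TPA 2 lay below all 3 controls, while TPA 1 lay above all 3 for VCL and above controls 2 and 3 for TLN1. ZYX, zyxin, had a value of 1.33 ± 0.52, and TES, testin, 0.35 ± 0.54. All 5 LIM proteins were positive. PDLIM7, enigma, stood at 192, 109 and 93.3 CPM in the controls and 162 and 602 under TPA (1.54 ± 0.54, adjusted p = 0.286 in edgeR), so TPA 1 lay within the control range. TGFB1I1, the adhesion protein Hic-5, had 1.37 ± 0.50, and FHL1, the LIM group's most abundant transcript, was at 462, 532 and 302 CPM in the controls and 648 and 321 under TPA. Among the turnover proteins PFN1, profilin 1, had 1.03 ± 0.43, while WDR1, the cofilin cofactor AIP1, read 626, 283 and 266 CPM in the controls and 477 and 642 under TPA. CFL1, cofilin 1, had -0.10 ± 0.48 and CAP1 0.35 ± 0.29.

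**Figure D3:**
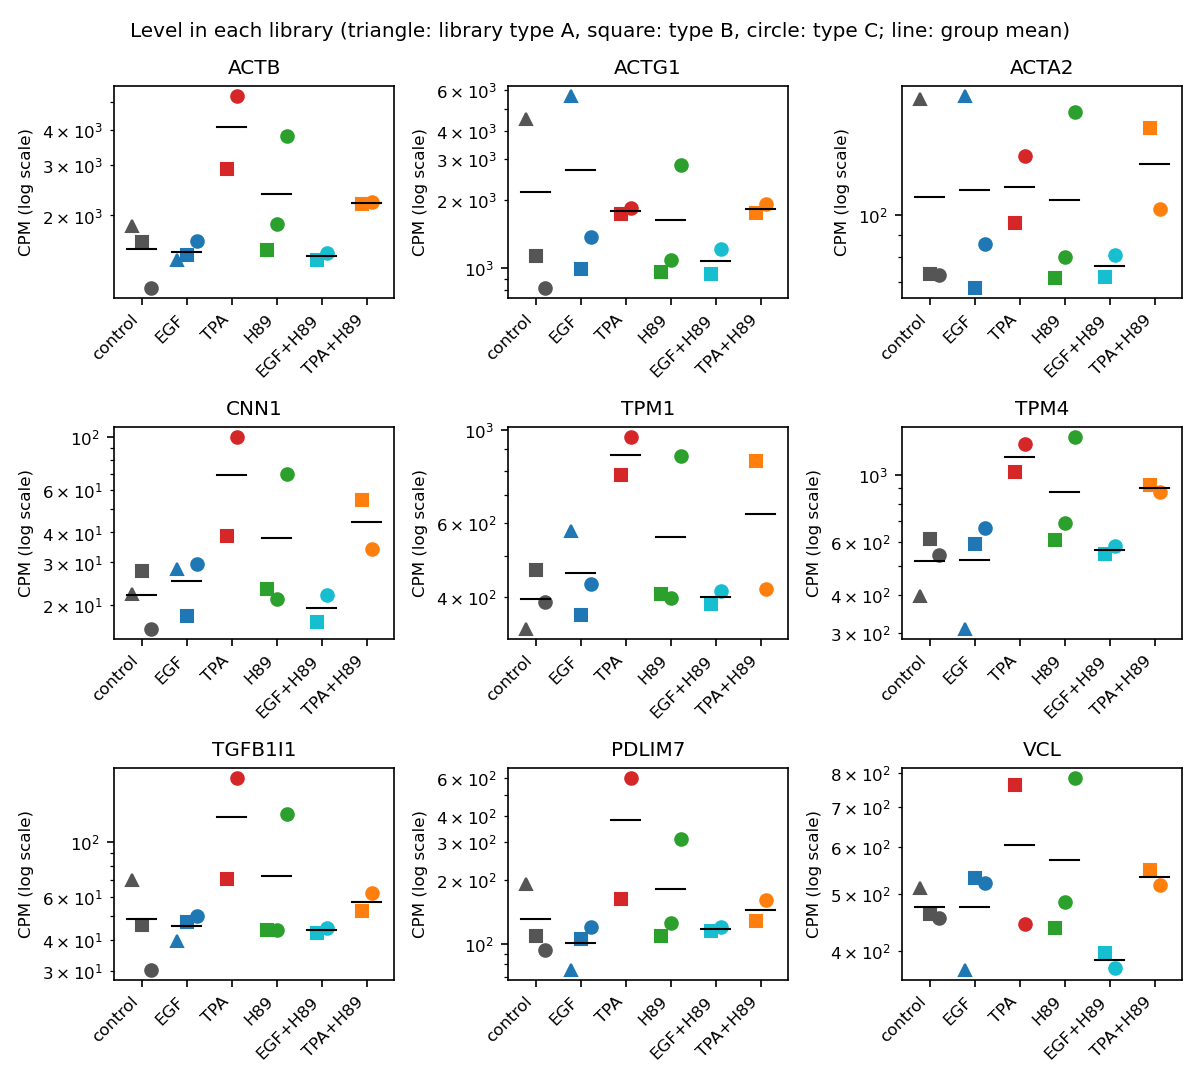
TMM-normalised CPM (log axis) of 9 of the genes in each of the 15 libraries, by treatment; marker shape gives the library type and the black line the group mean. ACTB, TPM1 and TPM4 show both TPA libraries above all controls, and H89 3 (the upper green circle) stands above the other H89 libraries in all 9 panels.

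The 2 TPA libraries were unlike each other in which genes stood out. Against the mean of the 3 controls, TPA 1 had 4 members at 2-fold or more (PDLIM5, TAGLN, TPM4 and ACTG2; 7.4% of all genes), 34 positive values and a median log2 difference of 0.49. TPA 2 had 13 members at 2-fold or more (17.9% of all genes), 1 at 2-fold or more below, MYL6 at -1.03 (19% of all genes), 27 positive values and a median of 0.53. Its upper end was PDLIM7 at 2.27, CNN1 at 2.23, TGFB1I1 at 1.98 and ZYX at 1.96. Set directly against TPA 2, TPA 1 was at least 2-fold higher for PDLIM5, MYL6, ACTG2, LMOD1 and FHL1 and at least 2-fold lower for PDLIM7, TPM2, ZYX, CNN1, TGFB1I1 and FLNC; 15.7% and 22.1% of all genes were as far apart in these directions. These are single libraries, and no test stands behind the counts.

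Each TPA library was also set against the control of its own library type. TPA 1 exceeded control 2 in 35 of 36 members with a median of 0.58, and 1 member, ACTG2 at 1.75, reached 2-fold (9.77% of all genes). TPA 2 exceeded control 3 in 30 of 36 with a median of 1.18, and 19 reached 2-fold (17.6% of all genes), from PDLIM7 at 2.69, CNN1 at 2.66 and TGFB1I1 at 2.58 down. Over all genes these 2 medians were 0. The pairs thus gave positive medians in both library types, with the larger one for TPA 2. TPA 2 belongs to the stretch of sample names without a control of its own. TPA 1 belongs to the stretch of control 3, not to that of control 2, with which it was paired. TPA 1 and control 2 also differed in ribosomal RNA, with 11.7% and 30.4% of their counts. The part of these stretches and of ribosomal RNA in the result was not tested. Both TPA libraries exceeded controls 2 and 3 in 26 of the 36 genes, an order found in 16% of all genes; leaving control 1 out of this order was chosen after its values were seen.

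H89 alone was compared with the controls to see whether the inhibitor moved these genes without a mitogen. No member passed the adjusted p of 0.05 (0% of all genes did), and none had an unadjusted p under 0.05, where 0.264% of all genes were higher and 3.01% lower. DESeq2 called 0 members (0.0165% of the genes it tested), and in 0 members did the H89 and control libraries fail to overlap (2.85% of all genes higher, 4.25% lower). The members' median log2 fold change was 0.16, with 25 of 36 positive, against -0.05 and 45.2% over all genes. The sign of that median depended on single libraries: it was -0.16 without H89 3 and -0.060 without control 3.

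H89 3, the library named c17, was also read apart from H89 1 and H89 2, named c7 and c11. ACTB was at 1509 and 1859.5 CPM in H89 1 and 2 and at 3790.1 in H89 3, above every control. TPM4 read 606, 692 and 1334 CPM in H89 1 to 3, TPM3 192, 233 and 352, and TPM1 406, 398 and 865. In all 4 genes H89 1 and 2 were close to the control levels and H89 3 was close to the TPA levels. The fitted values over all 3 H89 libraries were 0.76 ± 0.36 for TPM4, 0.54 ± 0.27 for TPM3 and 0.65 ± 0.36 for ACTB (adjusted p = 0.99991 for each, edgeR).

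The other actins showed the same split, with ACTG1 at 964, 1087 and 2835 CPM, ACTA2 at 71.8, 80.2 and 173 and ACTG2 at 2.11, 1.30 and 6.86 in H89 1 to 3. CNN1 stood at 23.2, 21.1 and 69.7 CPM, TAGLN at 368, 259 and 1114 and CALD1 at 1238, 1329 and 1724. FLNA read 1823, 2153 and 4205 CPM, VCL 439, 485 and 785, TLN1 541, 645 and 918, and FHL1 449, 361 and 708. PDLIM7 was at 109, 125 and 309 CPM, WDR1 at 269, 300.1 and 622 and MYL9 at 247, 230.4 and 357. MYH9 was at 682, 885 and 1001 CPM and TPM2 at 807, 884 and 1289.9. Among the genes of this paragraph, the log2 difference of H89 3 from H89 1 and 2 was smallest for MYH9 (0.37) and CALD1 (0.43). MYL9 (0.58) and TPM2 (0.61) came next.

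Against the 3 controls, H89 3 had 12 members at 2-fold or more (4.52% of all genes), 35 of 36 positive and a median of 0.75, whereas H89 1 and H89 2 had 0 each (3.37% and 2.98% of all genes) and medians of -0.14 and -0.05. Set against the mean of H89 1 and 2, H89 3 had 13 members at 2-fold or more (4.32% of all genes) and a median of 0.82, led by ACTG2 at 2.02, TAGLN at 1.85, CNN1 at 1.66, TGFB1I1 at 1.56 and ACTG1 at 1.47. CNN3 alone was not higher, at -0.04. In 21 of the 36 members H89 3 lay above H89 1, H89 2 and each control (18.7% of all genes). Against control 3, of its own library type, H89 3 was higher in 36 of 36 with 22 at 2-fold or more (4.13% of all genes), while H89 2 against the same control had 33 positive values, a median of 0.27 and 0 at 2-fold (1.9% of all genes). H89 1 exceeded control 2 in 5 of 36, with a median of -0.10.

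TPA 2 and H89 3 share a library type and a stretch of sample names but not a treatment. Between them the members' median difference was -0.08 and 17 of 36 were higher in TPA 2. Those at least 2-fold higher in TPA 2 were ZYX, MYH9 and TPM2 (19.7% of all genes), and 7 were at least 2-fold lower (MYL6, PDLIM5, ACTG2, TAGLN2, FHL1, TLN1 and LMOD1; 12.8% of all genes). The 11 immediate-early genes kept as a reference separated these libraries, with median log2 differences from the controls of 5.60 in TPA 2 and -0.22 in H89 3. High levels were not limited to these: over the members, the median log2 difference from the control mean was 0.53 in TPA 2 and 0.75 in H89 3, and also 0.49 in TPA 1, 0.51 in TPA+H89 1 and 0.51 in control 1, which received no agent. Control 1 against controls 2 and 3 had a median of 0.76, 28 of 36 positive and 11 members at 2-fold or more (20.7% of all genes). Marker levels by total count also differed between these libraries. DCN, decorin, stood at 1619, 1199 and 1971 CPM in TPA 1, TPA 2 and H89 3 and at 3059 to 4450 in the controls, and PDGFRA at 468, 439 and 454 against 539 to 1143. In TPA+H89 1 DCN and PDGFRA stood at 1213 and 319 CPM. THY1 was at 637, 536 and 931 CPM in TPA 1, TPA 2 and H89 3 against 1013.5 to 1296. PDGFRB, at 520, 400 and 639.5 CPM against 384 to 1122.5, and COL1A2, at 10281, 7974 and 14842 against 6770 to 21727, stayed within the control range. COL3A1, LUM and FAP fell below their control ranges in TPA 2 only. COL1A1 was at 4932, 15495 and 7503 CPM against 2501 to 7327 in the controls, and CSPG4, a pericyte marker, at 189, 359 and 266 against 103 to 173. The other markers of that list did not share the CSPG4 rise throughout. RGS5 stood at 2.39, 2.08 and 3.21 CPM against 2.93 to 5.80, and SYNPO2 at 158, 141 and 145 against 88.0 to 184. MYOCD was at 14.6, 7.07 and 10.9 CPM against 6.06 to 8.38. The summed level of the 9 fibroblast markers was 24685 to 34154 CPM in the 3 libraries and 23745 to 51882 in the controls, and that of the 8 smooth muscle and pericyte markers 366 to 511 against 221 to 373. The part of these markers in the members' levels was not tested.

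**Figure D4:**
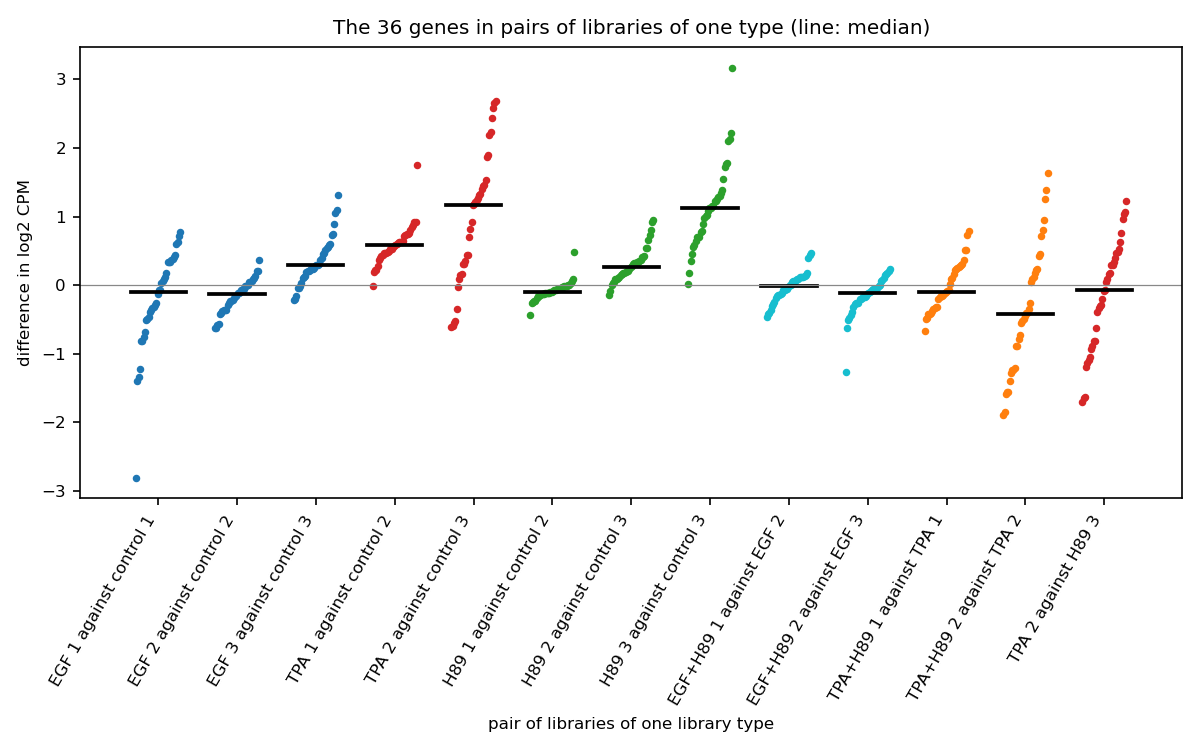
Difference in log2 CPM of each of the 36 genes (points, sorted) between 2 libraries of the same library type, with the median as a line. TPA 1 and TPA 2 against their controls have medians of 0.58 and 1.18, H89 3 against control 3 has 1.13, and TPA 2 against H89 3 has -0.08.

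EGF for 1 h was compared with the controls in the same way. No member passed the adjusted p of 0.05 (0.0269% of all genes did, 5 genes), none did with library type as a term (0.221% of all genes), and none had an unadjusted p under 0.05 (1.37% of all genes higher, 0.258% lower) or was called by DESeq2 (0.413% of the genes it tested). The median was 0.01 with 19 of 36 positive, against 0.02 and 53.2% over all genes. In 0 members did the EGF and control libraries fail to overlap (2.97% of all genes higher, 1.99% lower). ACTB was at 1394, 1458 and 1628 CPM in EGF 1 to 3, within the control range. VCL, a classical serum-responsive gene of the list, was at 372, 531 and 521 CPM.

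The 3 members of lowest p all had negative values. MYL9 was at 54.95, 185 and 183 CPM in EGF 1 to 3 (-0.89 ± 0.47), TLN1 at 427, 568 and 563 (-0.46 ± 0.33) and PDLIM7 at 75.4, 105 and 121 (-0.39 ± 0.49), each with an adjusted p of 0.99991 in edgeR. EGF 1 was the lowest library for each of the 3, and without it the values were -0.53, -0.35 and -0.24. Without control 1 they were -0.50, -0.13 and -0.0041. At the other end, EGF 1 held 5695 CPM of ACTG1, where EGF 2 and 3 held 994 and 1377, and control 1, of the same library type, held 4513. ACTA2, at 189, 67.9 and 85.6 CPM, ACTG2, at 8.36, 1.12 and 1.85, and TAGLN, at 1237, 383 and 513, had the same order. CNN1 was at 28.1, 17.9 and 29.5 CPM under EGF, TPM1 at 575, 362 and 429 and FLNA at 3365, 1924 and 1865. The other members read in single libraries were CALD1 at 1260.4, 1092 and 1024 CPM, TPM2 at 2219, 660.1 and 953, TPM3 at 169, 191 and 235 and TPM4 at 309, 589 and 668. MYH9 stood at 944, 736 and 764 CPM, FHL1 at 385, 346 and 367 and WDR1 at 669, 301 and 314 under EGF. EGF 1 lay above EGF 2 and 3 for TPM2, CALD1, MYH9 and WDR1 and below both for TPM4, with smaller gaps for FHL1 and TPM3. Within library types the medians over the members were -0.10 (EGF 1 against control 1), -0.13 (EGF 2 against control 2) and 0.29 (EGF 3 against control 3).

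**Figure D5:**
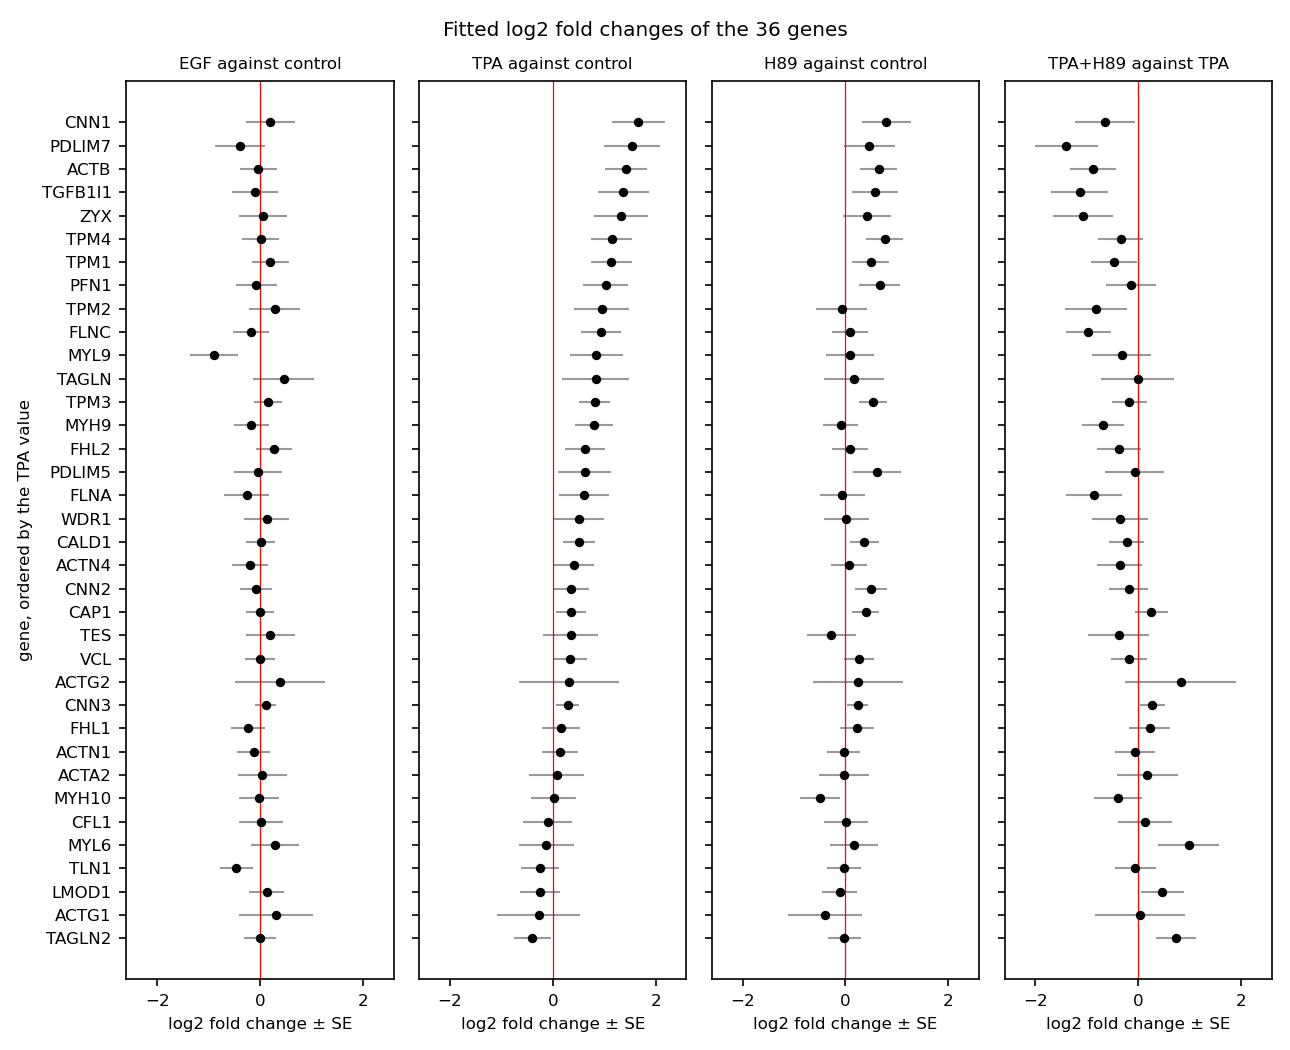
Fitted log2 fold changes with SE of the 36 genes in 4 comparisons (x axis), ordered by the TPA value (y axis). Most TPA values lie right of 0 (30 of 36), EGF values lie on both sides (19 of 36 above 0), and none passed the adjusted p of 0.05 in edgeR.

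TPA was also set against EGF directly. No member passed the adjusted p of 0.05 in edgeR (0% of all genes did), 12 were higher and 0 lower at an unadjusted p under 0.05 (7.41% and 5.94% of all genes), and DESeq2 called 2 (1.75% of the genes it tested), ACTB and PDLIM7. The median over the members was 0.41, with 30 of 36 positive, against -0.03 and 48.0% over all genes. Both TPA libraries exceeded all 3 EGF libraries in 16 members (9.71% of all genes). MYL9 had 1.74 ± 0.52, PDLIM7 1.93 ± 0.54 and ACTB 1.45 ± 0.40 (adjusted p = 0.304, 0.301 and 0.301, edgeR). Without TPA 1, edgeR called ACTB and PDLIM7 (adjusted p = 0.0470 and 0.0212; 5.81% of all genes).

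The combined treatments asked whether H89 altered the levels seen with each mitogen. For TPA+H89 against TPA, no member passed the adjusted p of 0.05 (0% of all genes did), and 2 had an unadjusted p under 0.05, both lower (4.44% of all genes; 2.56% were higher). DESeq2 called 0 members (0.0494% of the genes it tested). The median was -0.21 with 10 of 36 positive, against -0.02 and 44.8% over all genes. ACTB stood at 2188 and 2238 CPM in TPA+H89 1 and 2, below both TPA libraries and above all 3 controls, a log2 difference of -0.89 ± 0.45 from TPA (adjusted p = 0.726, edgeR). PDLIM7 was at 128 and 161 CPM (-1.40 ± 0.61), and FLNC had -0.97 ± 0.44. CNN1, at 54.8 and 34.00 CPM, stayed above the 3 controls and straddled TPA 1. TAGLN2 (0.74 ± 0.39) and MYL6 (0.98 ± 0.58) were at the positive end. In 10 members both TPA+H89 libraries lay below both TPA libraries (11.1% of all genes), and in 3 above (10.6%).

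By library type the 2 pairs differed. TPA+H89 1 against TPA 1 had a median of -0.09 and 0 members at 2-fold in either direction (9.74% of all genes higher, 12.7% lower). TPA+H89 2 against TPA 2 had a median of -0.42, with 10 members at least 2-fold lower (17.9% of all genes) and 3 at least 2-fold higher (12.9%). The lower ones included PDLIM7 at -1.90, TPM2 at -1.85, MYH9 at -1.59 and CNN1 at -1.56, and the higher ones were ACTG2, MYL6 and TAGLN2. TPM1 was at 842 CPM in TPA+H89 1 and 417 in TPA+H89 2, TPM2 at 1439.9 and 842, MYH9 at 1282 and 699, CALD1 at 1702 and 995 and TAGLN at 1124 and 705. ACTG1, at 1739 and 1904 CPM, TPM4, at 923 and 877, TPM3, at 279.9 and 278, and VCL, at 549 and 518, differed little between the pair. FLNA was at 2659.9 and 2182 CPM, TLN1 at 676 and 486, FHL1 at 507 and 621, WDR1 at 531 and 348, MYL9 at 451 and 300.1, ACTA2 at 159.6 and 104 and ACTG2 at 6.01 and 6.90. TPA+H89 1 had the fewest reads of all libraries, and RMRP, a non-coding RNA, took 13.4% of them; the part of this in the values was not tested.

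Against H89 alone, TPA+H89 had 0 members past the adjusted p of 0.05 (0.0969% of all genes). The members' median was 0.15 with 24 of 36 positive, against 0 and 47.2% over all genes. The sign of that median depended on single libraries, at -0.068 without TPA+H89 1, -0.033 without H89 1, -0.014 without H89 2 and 0.42 without H89 3. It had 0 members at an unadjusted p under 0.05 (2.92% of all genes higher, 0.969% lower) and 0 called by DESeq2 (0.547% of the genes it tested), and TAGLN2 and CNN3 were the 2 members in which both TPA+H89 libraries lay above all H89 libraries (9.92% of all genes). TPA+H89 1 exceeded H89 1 in 34 of 36 members (median 0.62, with 6 at 2-fold or more, 12.4% of all genes) and TPA+H89 2 exceeded H89 2 in 28 (median 0.27, 2 at 2-fold, 5.24% of all genes), but TPA+H89 2 exceeded H89 3 in 3 of 36 (median -0.59). The interaction of TPA and H89, which tests whether the TPA difference depends on H89, had 0 members past the adjusted p of 0.05 (0% of all genes). Its median was -0.43, and ACTB had -1.53 ± 0.58, PDLIM7 -1.86 ± 0.78 and TGFB1I1 -1.72 ± 0.72 (adjusted p = 0.90013 for each, edgeR), the 3 members with an unadjusted p under 0.05 (2.47% of all genes lower, 2.31% higher); DESeq2 called 0 members. Over all genes the median of this interaction was 0.01. Without H89 3 the members' median was -0.12.

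EGF+H89 against EGF had 0 members past the adjusted p of 0.05 (0% of all genes). The members' median was -0.29 with 10 of 36 positive, against -0.07 and 42.8% over all genes. With library type as a term the members' median was -0.03. At an unadjusted p under 0.05 there were 0 members (0.0754% of all genes higher, 1.59% lower), and DESeq2 called 0 (0.00549% of the genes it tested). Both EGF+H89 libraries lay below all EGF libraries in 8 members (10.1% of all genes) and above in 3 (7.6%). ACTB was at 1400.1 and 1483 CPM, ACTG1 at 948 and 1211, ACTA2 at 72.03 and 80.9 and TAGLN at 349 and 359, levels within or near those of EGF 2 and 3. CNN1 was at 16.95 and 21.9 CPM, TPM1 at 385 and 413, TPM4 at 546 and 580.2, TPM3 at 206 and 228, MYL9 at 200.1 and 204 and PDLIM7 at 115 and 120.0. VCL, at 397 and 375 CPM, FLNA, at 1624 and 1549.6, and MYH9, at 570.4 and 612, were among the lowest values of the series for these genes. CALD1 read 1089 and 958 CPM, TPM2 749 and 908, TLN1 470.4 and 465, FHL1 454 and 395, WDR1 272 and 263 and ACTG2 0.995 and 0.747. By pairs, EGF+H89 1 against EGF 2 had a median of -0.01 and EGF+H89 2 against EGF 3 one of -0.12.

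EGF+H89 against H89 alone had 35 of 36 negative values, a median of -0.48 and 0 members past the adjusted p of 0.05 (0.0269% of all genes). Over all genes the median was -0.02 and 45.1% of values were positive. This comparison had 0 members at an unadjusted p under 0.05 (1.19% of all genes higher, 0.339% lower) and 0 called by DESeq2 (0.328% of the genes it tested). In 12 members both EGF+H89 libraries lay below all 3 H89 libraries (11.9% of all genes) and in 1, CNN3, above (10.7%). Without H89 3 the median was -0.05. The interaction of EGF and H89 had 0 members past the adjusted p of 0.05 (0% of all genes). It had a median of -0.45 (-0.04 over all genes) and, without H89 3, of -0.10. It had 0 members at an unadjusted p under 0.05 (0.108% of all genes higher, 0.151% lower), and DESeq2 called 0.

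SRF, the factor known to act at CArG boxes, is itself an immediate-early gene. It was at 71.7, 48.4 and 49.9 CPM in the controls and 87.2, 102 and 115 under EGF, so that every EGF library exceeded every control. The fitted log2 change was 0.84 ± 0.28, with an adjusted p of 0.99991 in edgeR. Under TPA it read 80.5 and 94.2 CPM (0.62 ± 0.31, adjusted p = 0.401 in edgeR), under H89 53.9, 62.7 and 95.6, under EGF+H89 58.6 and 65.9 and under TPA+H89 101 and 57.3. SRF was thus higher in all 3 EGF libraries while the members' median under EGF was 0.01.

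The 10 members with a box and the 23 without were set side by side as a description. Under TPA the medians of the fitted log2 fold changes were 0.35 with a box and 0.51 without. They were 0.62 and 0.53 for TPA 1 against control 2, 1.20 and 0.71 for TPA 2 against control 3, and 1.02 and 0.77 for H89 3 against H89 1 and 2. Members with the largest TPA values were found on both sides: TGFB1I1 and TPM4 hold a box in the windows searched, and CNN1, PDLIM7 and ZYX do not. Members without a box may still hold an element of looser form or outside these windows.

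Other genes of the cytoskeleton were read from 4 lists. Under TPA, none of 15 Arp2/3 and WAVE genes (median 0.22), 17 other actin-binding proteins (0.41), 18 integrin and focal adhesion genes (0.13) or 17 genes of microtubules and intermediate filaments (0.68) was called in either direction. The lowest p of these were ACTR2, an Arp2/3 subunit, at 1.28 ± 0.42, FSCN1, the bundling protein fascin, at 1.82 ± 0.51, BCAR1, the adhesion scaffold p130Cas, at 1.67 ± 0.50, and TUBB3, a beta-tubulin, at 1.86 ± 0.45 (adjusted p = 0.264, 0.204, 0.222 and 0.137, edgeR). With library type as a term, 1 gene of microtubules and intermediate filaments was called higher under TPA, and none of the other lists. Under EGF and under H89, 0 genes of these 4 lists were called. The 11 immediate-early genes had 9 called higher under TPA, with a median of 4.80, and 3 under EGF, with a median of 2.91, in the same fits.

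Some values carry a limit from how reads can be assigned. GENCODE annotates 79 processed or other pseudogenes for 13 of the members, among them ACTB, ACTG1, CNN2, TPM3, CFL1 and PFN1, and 6 of these pseudogenes were rows of the table, with counts of at most 1.09% of the parent's (TPM3). A further limit is overlap with another counted gene, which holds for ACTA2, TAGLN, MYL6, MYH10, VCL, TLN1, CFL1, PFN1 and CAP1, and the sources used here do not give how such reads were counted.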

How the data were processed

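RNA-seq of CCD-1070Sk fibroblasts was available as 1 table of read counts per gene that the authors deposited; per the submitters' processing notes it was made with HOMER on hg19 (GRCh37), and the aligner is not given in the sources used here. The counts were whole numbers and not normalised. The 36 genes, their role groups and the other gene lists were chosen with earlier results of these data known.

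All 15 distinct libraries were fitted together with edgeR 4.0.16 (R 4.3.3): filterByExpr with a smallest count of 10 kept 18575 genes, TMM scaled the libraries, and the quasi-likelihood test used group as the only term, with Benjamini-Hochberg adjustment over all tested genes at 0.05. The 4 control columns gave 3 libraries. Levels are TMM-normalised CPM. Differences between single libraries are of log2 CPM with a prior count of 2, and 2-fold is the threshold used there. A gene called higher or lower is one past the adjusted p of 0.05. CPM per kilobase used the union of exons of GENCODE 29, which may differ from the annotation the authors counted on. The test was also run on simulated counts. These had the same dispersion for every gene and no library types, so that check does not cover differences between library types.

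Values in single libraries were given for the 3 members of lowest p in each comparison of a treatment with control, for the most abundant member of each role group, and for ACTB, ACTG1, ACTA2, ACTG2, VCL, TAGLN, CNN1, FLNA, TPM1, MYL9 and SRF. Other members were singled out after their values were seen. Of each further list the gene of lowest p was named; 1 further list is not reported here. The alternatives tried were DESeq2 1.42.0 and its size factors, other low-count filters, only the groups compared, a term for library type, a block for stretches of sample names, both control copies, counts without RNR1, RNR2 and RMRP, and leaving out each library.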

Additional observations from a re-analysis of the deposited data

How the results depend on the processing

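No member was called in any comparison under any alternative, except where TPA was compared with control or with EGF. DESeq2 called 1 member for TPA against control and 2 for TPA against EGF, and leaving out 1 library at a time gave 0 to 2 in both, with 2 without TPA 1. The medians moved more. Leaving out 1 library at a time gave -0.23 (without EGF 1) to 0.21 for EGF, 0.35 to 0.86 (without control 1) for TPA, -0.16 (without H89 3) to 0.41 for H89, -0.38 to -0.072 (without EGF 1; -0.15 without EGF+H89 1) for EGF+H89 against EGF and -0.31 to -0.064 (without TPA+H89 2) for TPA+H89 against TPA. It gave -0.61 to -0.050 (without H89 3) for EGF+H89 against H89, -0.068 to 0.42 for TPA+H89 against H89, 0.26 to 0.73 (without EGF 1) for TPA against EGF, -0.68 to -0.10 (without H89 3) for the interaction of EGF and H89 and -0.68 to -0.12 (without H89 3) for that of TPA and H89. A term for library type gave 0.76 for TPA, 0.77 for TPA against EGF and -0.028 for EGF+H89 against EGF, for which a block for stretches of sample names gave -0.027 and leaving out control 1, EGF 1 and TPA 2 together gave -0.072. The cause of these shifts was not tested.

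Members at 2-fold or more above the controls numbered 4 in TPA 1 and 2 with CPM by total count, 2 when RNR1, RNR2 and RMRP were also left out, 1 against the control of the same library type and 14 at 1.5-fold. For TPA 2 the 13 became 8 without those RNAs. For H89 3 the 12 became 7 without those RNAs, 22 against control 3 and 27 at 1.5-fold, and H89 2 had 1 at 1.5-fold. No share of all genes stands beside the counts at 1.5-fold or with other scaling. Those counts are therefore not read as particular to the members. Without those RNAs the median over all genes moved to -0.38 in TPA 2 and -0.17 in H89 3; the members' median less that of all genes was 0.56 and 0.76, against 0.57 and 0.76 with TMM. Of the values of single members and SRF, 5618 moved by less than 1 SE without a change of call, 369 moved by more, 7 passed the threshold and 0 reversed a call. The labels carry no replicate numbers, so the only blocked fits were those by library type and by stretches of sample names, and neither called a member.

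The controls are 3 libraries of 3 library types, TPA and the combined treatments have 2 libraries each, and TPA 2, H89 3 and TPA+H89 2 belong to a stretch of sample names with no control of its own. ACTG2, with 22 reads in its lowest library, was limited by counting as well.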
